A study of Mus musculus with 12 samples.

Results

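The genes of oxidative phosphorylation were followed in total RNA of cultured OPCs of the mouse, the oligodendrocyte precursor cells from which the myelin-forming cells of the brain arise. Members were chosen by symbol. They are the protein-coding genes of Ensembl release 96 whose symbol starts with mt-, Nduf, Uqcr, Cox4, Cox5, Cox6, Cox7, Cox8 or Atp5, and the succinate dehydrogenase genes Sdha, Sdhb, Sdhc and Sdhd. This rule gave 107 of the 55536 genes in the tables, 13 encoded in the mitochondrial genome and 94 in the nucleus. Complex I held 43 of them, 7 of these mitochondrial, and 8 more were its Ndufaf assembly factors. Complex II held 4, complex III 9 with 1 mitochondrial gene, complex IV 23 with 3, and ATP synthase 20 with 2.

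Cells came from brains of pups at postnatal days 4 to 6 and were sorted either on GFP driven through Sox10 or on the surface marker CD140a (PDGF receptor α), and the labels do not say which was used for which sample. The reporter is switched on by Cre under the Sox10 promoter (Sox10:Cre-RCE:loxP(EGFP)), so that every cell that ever activated Sox10 carries GFP, and cells at later stages of the lineage are marked along with OPCs. Brains of several pups were pooled, and the study took its replicates from different litters. That libraries of the same replicate number share a litter is assumed here, and litter below stands for replicate number. The 3 groups of 4 libraries were untreated Ctr-OPCs, OPCs with 1 µM dexamethasone (Dexa) for 48 h, and OPCs with 100 ng/ml of interferon-γ (IFN-γ; group IFNg) for 48 h. Dexamethasone is a synthetic glucocorticoid, and IFN-γ is a cytokine of activated lymphocytes. All groups carried the same reporter and growth factors. The labels also name experimental autoimmune encephalomyelitis as the mouse model, while the cells measured here were cultured from pups and met IFN-γ or dexamethasone only in the dish.

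Oxidative phosphorylation is the last stage of respiration in the inner mitochondrial membrane. Complexes I and II pass electrons from NADH and succinate to ubiquinone, complex III hands them to cytochrome c, and complex IV reduces oxygen. Complexes I, III and IV pump protons, and ATP synthase lets the protons back to make ATP. The subunits come from separate genomes: the mitochondrial DNA encodes core membrane subunits of every complex except complex II, and the nucleus encodes the rest, so that the transcripts are made by different polymerases in different compartments. Cells of the oligodendrocyte lineage are known for a high need of energy and lipid while they build myelin.

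Several mitochondrial genes have copies in the nuclear genome, and their sequences decide how far the counts can be trusted. On chromosome 1 of GRCm38 lies a stretch of unprocessed pseudogenes on the minus strand. The gene mt-Atp6, at chrM:7927-8607, matched Gm10925, at chr1:24613974-24614651, with 0 differing bases over 678 aligned bases. The same held for mt-Co2 and Gm28661 over 681 bases, for mt-Co3 and Gm28437 over 783, and for mt-Nd4l and Gm10222 over 294. The first 60 bases of mt-Atp6 and of its copy are shown in the direction of transcription, as a stretch from which no read can be placed. In mt-Nd3 and Gm28438 only 1 base differed over 345, T3C counted from the first base of mt-Nd3, and it stands in capitals.
mt-Atp6 (chrM:7927-7986): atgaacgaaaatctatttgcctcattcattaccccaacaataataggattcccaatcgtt
Gm10925 (chr1:24614592-24614651): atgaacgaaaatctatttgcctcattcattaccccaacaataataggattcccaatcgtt
mt-Nd3 (chrM:9459-9518): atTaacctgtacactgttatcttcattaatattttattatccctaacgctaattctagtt
Gm28438 (chr1:24613060-24613119): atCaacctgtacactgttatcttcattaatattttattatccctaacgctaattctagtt

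The estimated counts were split between such pairs. Gm10925 took 55.0% of the reads of the pair, Gm28437 54.2%, Gm10222 51.7% and Gm28661 48.9%, while Gm28438 took 18.4% and Gm29216, which aligned to 492 of the 1545 bases of mt-Co1, held 4.13% of the reads of both. The values of mt-Atp6, mt-Co2, mt-Co3 and mt-Nd4l given here therefore hold only a share of the reads that match them, and calls on them were repeated with the reads of the copy added. Among nuclear genes, Atp5g2, for the membrane ring subunit c of ATP synthase, had 3 copies, led by Gm10175, that held 90.9% of the reads assigned to it and to them, and for Ndufb4 2 copies held 59.4%. How many of these reads match the member equally well was not tested. In all, 26 members had a copy that shares most of its 31-base words with them, and for 12 the copies held over 5% of the reads of both. The coding sequences of mt-Atp8 and mt-Atp6 also overlap by 43 bases, at chrM:7927-7969, so that a read within this run belongs to both: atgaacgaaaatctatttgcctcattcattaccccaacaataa.

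Promoters, from 250 bases before to 50 after the RefSeq start on GRCm38.p6, were at hand for 76 of the nuclear members. The NRF1 motif GCGCATGCG, read on both strands, stood in 10 of them (13.2%), against 1.95% of the promoters of 27025 genes. The ETS motif CCGGAAG, which the factor GABP reads, stood in 18 (23.7%, against 9.93%), and the YY1 motif AAGATGGCG in 8 (10.5%, against 1.64%). By contrast, the interferon γ-activated site TTCNNNGAA stood in 5 (6.58%, against 9.55%), and GAAANNGAA, the core of the interferon-stimulated element, in 7 (9.21%, against 9.76%). The members' promoters were richer in G and C than the rest, with a median of 58.5% against 52.7%. The CCAAT box stood in 34 (44.7%, against 41.1%) and TATAAA in 7 (9.21%, against 15.7%). All motifs were read on both strands, neighbouring NRF1 matches can overlap as in Atp5k, and a match only describes these letters.

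The 150 bases before the start are shown for the 4 nuclear members that the results below turn on and for Atp5k, which carries an NRF1 match. Capitals mark the matches: an interferon γ-activated site in Atp5f1 (RefSeq symbol Atp5pb), an ETS motif in Sdhd and overlapping NRF1 motifs in Atp5k. Cox5a and Cox7a2 held none of the motifs searched. Of the 10 members called higher with IFN-γ below that had a promoter, 1 held the interferon γ-activated site and 1 the ETS motif. The NRF1 motif stood in 1 (Ndufaf5) and the YY1 motif in 1 (Ndufs4). The CCAAT box stood in 4 (Atp5g3, Cox6b2, Cox7b and Ndufc2), and GAAANNGAA and TATAAA in 0. Over all genes the shares were 9.55%, 9.93%, 1.95%, 1.64%, 41.1%, 9.76% and 15.7% in this order.
Cox5a (chr9:57521082-57521231, plus strand): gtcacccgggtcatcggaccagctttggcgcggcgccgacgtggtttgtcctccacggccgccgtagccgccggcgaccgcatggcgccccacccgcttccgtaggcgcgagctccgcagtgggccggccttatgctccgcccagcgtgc
Cox7a2 (chr9:79759854-79760003, minus strand): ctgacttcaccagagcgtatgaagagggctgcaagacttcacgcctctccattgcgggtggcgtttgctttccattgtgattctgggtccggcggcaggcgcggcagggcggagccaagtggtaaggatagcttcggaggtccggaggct
Atp5f1 (chr3:105959264-105959413, minus strand): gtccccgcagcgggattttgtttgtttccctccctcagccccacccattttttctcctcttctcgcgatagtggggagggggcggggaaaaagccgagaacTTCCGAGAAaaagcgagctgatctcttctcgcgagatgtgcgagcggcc
Sdhd (chr9:50603850-50603999, minus strand): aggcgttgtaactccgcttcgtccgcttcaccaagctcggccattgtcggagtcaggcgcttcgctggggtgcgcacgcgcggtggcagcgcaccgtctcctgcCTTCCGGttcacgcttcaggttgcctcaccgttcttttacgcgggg
Atp5k (chr5:108434400-108434549, minus strand): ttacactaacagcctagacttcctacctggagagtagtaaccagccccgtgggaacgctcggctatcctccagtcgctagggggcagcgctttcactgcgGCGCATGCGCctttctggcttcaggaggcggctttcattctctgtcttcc

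Between 19209063 and 52074652 reads were assigned to genes in 11 libraries. The table of Dexa replicate 3 ended after 33.7% of its transcripts, so that the fits over all genes left it out. Its TPM values are used below only for genes it lists whole. Of the genes set as a check, Irf1, Gbp2 and B2m were all higher with IFN-γ (lowest log2 fold change 5.64), and Fkbp5, Per1, Zbtb16 and Klf9 were all higher with dexamethasone (1.29 to 1.60). The 8 OPC markers summed to 844 to 1983 TPM in Ctr-OPCs and to 693 to 1544 TPM with IFN-γ. In Ctr-OPCs the 8 neuron markers summed to 138 to 265 TPM and the 8 oligodendrocyte markers to 59.6 to 220 TPM. The 10 microglia markers summed to 0.149 to 0.472 TPM there. With IFN-γ 5 of 8 OPC markers fell, Gpr17 by 2.09 on the log2 scale, while among 8 astrocyte markers 3 rose, Gfap by 3.99, and 3 fell. The summed astrocyte markers were at 149 to 317 TPM in Ctr-OPCs and 269 to 435 TPM in IFN-γ-treated OPCs, and their part in the results below was not tested. In a bulk culture fewer cells of a type and less RNA per cell cannot be told apart.

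Per length, the mitochondrial transcripts stood far above the nuclear ones. TPM, the abundance of transcripts corrected for length, had a median of 898 over the 13 mitochondrial genes in Ctr-OPCs and 78.3 over the 94 nuclear ones. The highest was mt-Co1, the catalytic subunit of complex IV, with 3889 ± 885 TPM (SD, n = 4), and the lowest mitochondrial gene was mt-Nd6, the only member on the other strand of the mitochondrial DNA, with 98.5 ± 32.7 TPM. Between them lay mt-Atp8 at 1972 ± 419, mt-Co2 at 1595 ± 208, mt-Co3 at 1574 ± 290 and mt-Cytb, the cytochrome b of complex III, at 1114 ± 258 TPM. The levels of mt-Co2 and mt-Co3 differed by less than their SD. The order given is that without the copies described above, which held 48.9% of the reads of both for mt-Co2 and 54.2% for mt-Co3. For mt-Atp6, at 920 ± 158 TPM, the copy held 55.0%, while mt-Atp8 was not among the members with a copy. Whether the order holds with the copies added was not tested.

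Atp5b, the catalytic β subunit of ATP synthase, had the highest nuclear level, 612 ± 119 TPM in Ctr-OPCs. Its partner Atp5a1, the α subunit, had 392 ± 61.3 TPM, although the enzyme holds them in equal number. Nuclear ATP synthase genes had a median of 161 TPM, nuclear complex IV genes 113, complex III 105, complex II 70.7 and complex I 67.0. Without the members below 1 TPM, complex IV had 192 (14 genes) and ATP synthase 185 (17 genes), so that their order turned. The assembly factors of complex I, which act on the growing complex and leave it, were lowest, with a median of 8.82 TPM (3.97 to 16.3). Within complex II the order was Sdhb (iron-sulfur subunit) at 85.1 ± 6.80, Sdha (flavoprotein) at 77.6 ± 11.8, Sdhd at 63.8 ± 10.7 and Sdhc at 45.9 ± 10.6 TPM, the last pair being the membrane anchors. Sdhb and Sdha differed by less than the SD of Sdha.

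Where a subunit has alternative genes, the widely expressed one stood far above the tissue-restricted one. Cox4i1 had 356 ± 37.8 TPM and Cox4i2, the form known from lung and from low oxygen, 0.117 ± 0.0495 TPM. Cox6a1 stood at 243 ± 45.9 TPM against 0.247 ± 0.214 for Cox6a2, the heart and muscle form. Likewise Cox7a2 had 127 ± 18.8 TPM and its muscle form Cox7a1 1.36 ± 0.394 TPM. Cox8a had 293 ± 76.9 TPM, whereas Cox8b had 1 read and Cox8c 0 reads over all 11 full libraries. Ndufa4 had 210 ± 15.6 TPM and Ndufa4l2, known as a target of HIF-1, 0.178 ± 0.0543 TPM. Of the genes for subunit c, Atp5g3 had 185 ± 55.8, Atp5g1 130 ± 18.6 and Atp5g2 28.6 ± 5.24 TPM. This order holds without the copies of Atp5g2, which held 92573 reads over the 11 libraries, against 9313 for Atp5g2 and 65329 for Atp5g3. Among the genes named here for each other subunit, the same gene stood highest in the Dexa and IFN-γ-treated group means. This leaves out Cox7a2l, a relative of Cox7a2, which had 133 ± 8.05 TPM in Ctr-OPCs, above Cox7a2 by less than the SD of Cox7a2. In the Dexa group mean Cox7a2l had 131 TPM against 132 for Cox7a2, and with IFN-γ 132 against 185 TPM. With Cox7a2l counted, the highest gene of the group means thus changed between groups, but in Ctr and Dexa it also differed between litters. Cox7a2 was above Cox7a2l in Ctr replicate 1 (141 against 126 TPM) and Dexa replicate 1 (154 against 124). It was below in Ctr replicate 4 (107 against 133 TPM) and Dexa replicate 4 (108 against 138). With IFN-γ Cox7a2 was above in every library.

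**Figure D1:**
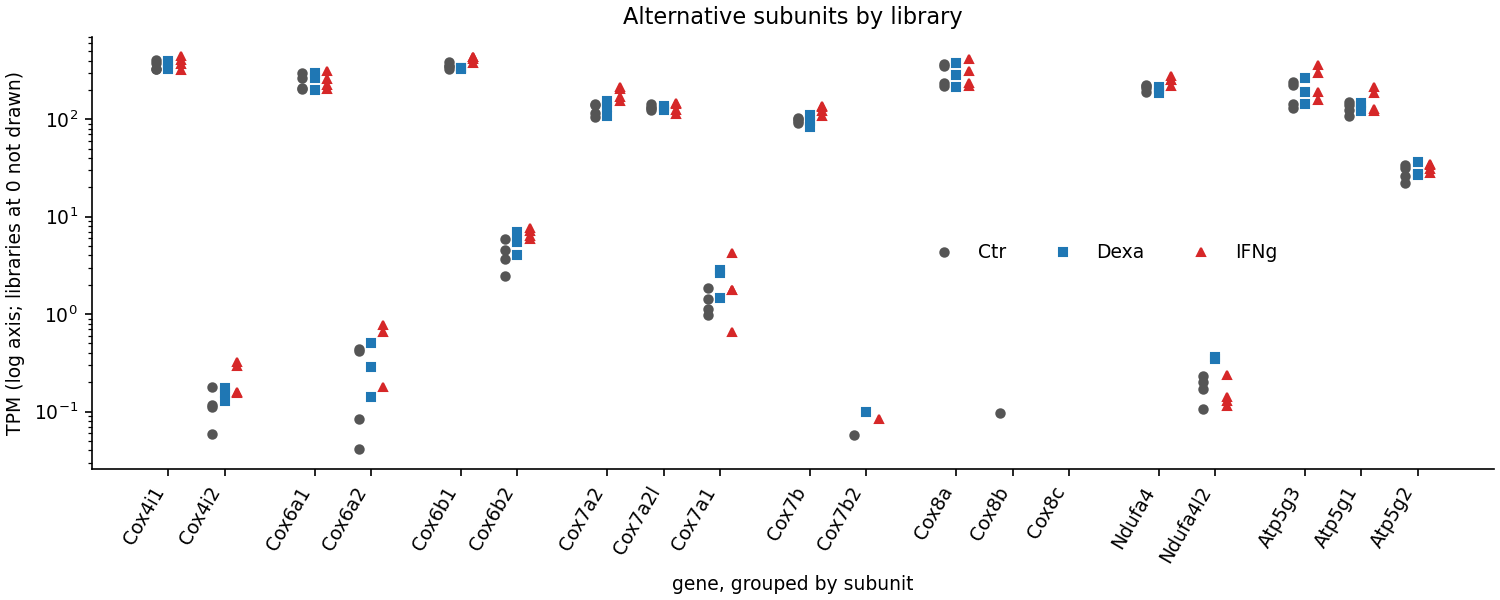
TPM in each of the 11 full libraries (log axis) for alternative genes of the same subunit, in Ctr (grey circles), Dexa (blue squares) and IFNg (red triangles); libraries at 0 are not drawn. Cox4i2, Cox6a2, Cox7b2 and Ndufa4l2 lie below 1 TPM in every library, and Cox4i1, Cox6a1, Cox8a and Ndufa4 above 100 TPM.

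A filter of at least 10 counts in at least 4 libraries was passed by 101 members. Below it were Cox4i2 with 51 reads in all 11 libraries, Ndufa4l2 with 72, Cox7b2 with 3, Cox8b with 1, Cox8c with 0, and a second gene under the symbol Atp5o (ENSMUSG00000116933) with 0. These 6 were not tested.

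The levels differed between litters in every group. As CPM without TMM scaling (reads relative to all reads in genes), the 13 mitochondrial genes stood at 14226, 12705, 18445 and 19504 in Ctr-OPC replicates 1 to 4, and the 94 nuclear genes at 11670, 10638, 8697 and 9036. Together the members took 2.31% to 2.85% of the reads of a library. Replicates 3 and 4, whose sample titles share a prefix of unstated meaning, thus held more mitochondrial and fewer nuclear reads than replicates 1 and 2. The ratio of mitochondrial to nuclear reads was 1.22, 1.19, 2.12 and 2.16 in Ctr-OPCs. In Dexa it was 1.246, 1.248 and 2.16 for replicates 1, 2 and 4, and in IFN-γ-treated OPCs 1.11, 1.22, 1.63 and 1.92. On the normalized CPM scale (counts relative to the TMM-scaled library size), 28 of 88 nuclear members (31.8%) were higher in all 6 libraries of replicates 1 and 2 than in all 5 of replicates 3 and 4, and 0 were lower in all. Over all 17919 genes tested these shares were 6.51% and 6.46%. Mitochondrial rRNA, which is no member, moved with this split, from 1.32% to 1.78% of reads in replicates 1 and 2 and from 2.23% to 3.29% in replicates 3 and 4, and its part was not tested.

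**Figure D2:**
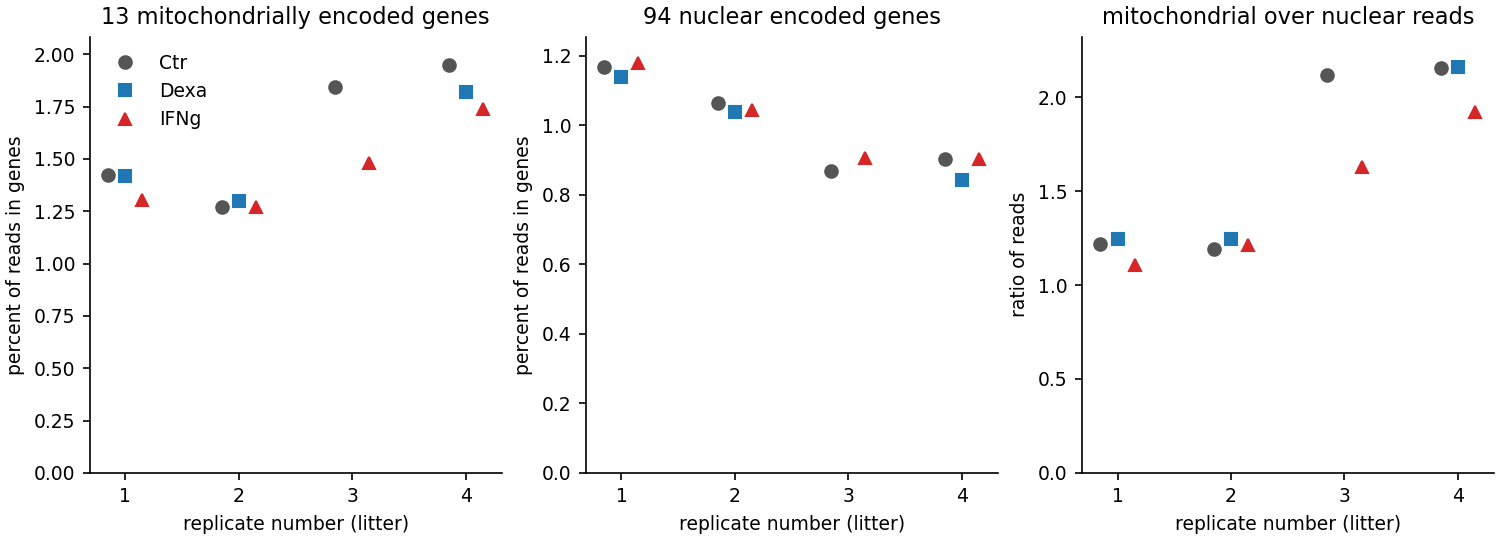
Reads of the 13 mitochondrially encoded and 94 nuclear encoded genes as a percentage of all reads in genes, and their ratio, for each full library by replicate number (litter); grey circles are Ctr, blue squares Dexa and red triangles IFNg. The ratio lies between 1.11 and 1.248 in replicates 1 and 2 and between 1.63 and 2.16 in replicates 3 and 4, in every group.

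The question of the first comparison is how the cytokine changes these genes. Within each litter, reads of the mitochondrial genes relative to all reads in genes were lower in IFN-γ-treated OPCs than in Ctr-OPCs in 4 of 4 litters, by a mean of -0.15 ± 0.13 (log2 ratio, SD, n = 4), with -0.12, -0.00094, -0.32 and -0.16 in litters 1 to 4. With the copies added it was -0.16 ± 0.14, and litter 2 was then above 0. The nuclear genes stood at 0.012 ± 0.036, above 0 in 3 of 4 litters. The ratio of the 2 genomes changed by -0.16 ± 0.17 and was lower in 3 of 4 litters, with the largest fall, from 2.12 to 1.63, in litter 3. The scale mattered: summed as TPM, the nuclear genes stood at 0.23 and the mitochondrial genes at 0.056, the latter above 0 in 3 of 4 litters. Over the TPM of protein-coding genes the nuclear genes were at -0.042, above 0 in 0 of 4 litters, and on TMM-adjusted library sizes at 0.056, above 0 in 4 of 4. The mitochondrial genes were at -0.21 over protein-coding TPM, above 0 in 0 of 4 litters. On TMM-adjusted sizes they were at -0.11, above 0 in 1 of 4, so that the fall in every litter depended on the scale. The 7SL and 7SK RNA, short transcripts that are no members, took 52.5% to 66.1% of all TPM, less with IFN-γ than in Ctr-OPCs in 4 of 4 litters. Groups are compared below on the count scale.

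Single genes were tested by edgeR with the litter as a block, and a gene is called when its adjusted p over all 17919 genes is below 0.05. IFN-γ changed 15 of the 101 members (14.9%), 11 higher and 4 lower, where 31.3% of all genes were called, 16.0% higher and 15.3% lower. The members' share was thus below that of the transcriptome. Their median log2 fold change was 0.015 against -0.012 over all genes, and 93 of 101 (92.1%) changed by less than 0.25 either way. The called members were 5 of 18 tested in complex IV, 3 of 19 in ATP synthase, 3 of 43 in complex I, 1 of 8 assembly factors, 2 of 9 in complex III and 1 of 4 in complex II. Without the litter as a block, edgeR called 0 of 101 with 7 at an unadjusted p below 0.05, and DESeq2 also called 0 with 7, while DESeq2 with the block called 13, all of them among the 15. Without Ctr replicate 1 there were 9 calls, 9 of them among the 15, and without Ctr replicate 2 there were 9, 8 of them among the 15. Neither tool called any of the 15 without the block.

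**Figure D3:**
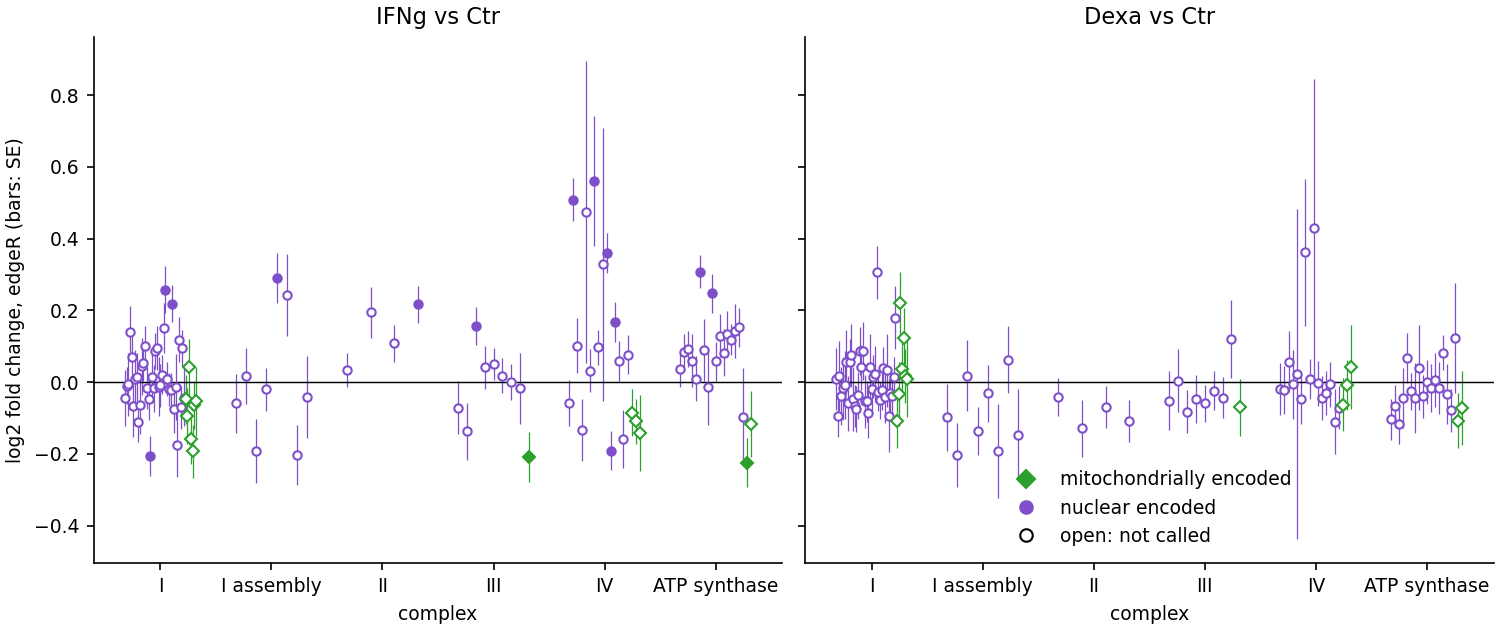
Log2 fold changes (edgeR, bars ± SE) of the 101 tested genes by complex, for IFNg vs Ctr and Dexa vs Ctr; green diamonds are mitochondrially encoded, purple circles nuclear encoded, and filled symbols are called. With IFN-γ the filled symbols reach from -0.22 to 0.56, and in the Dexa panel no symbol is filled.

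Complex IV held 5 of the 15 calls. Cox5a, a nuclear structural subunit of the enzyme, had 77.5, 62.3, 45.3 and 50.3 normalized CPM in Ctr-OPC replicates 1 to 4 and 104, 85.4, 72.3 and 70.1 in IFN-γ-treated OPCs. It was higher in each litter, by 1.34, 1.37, 1.60 and 1.39 times, and the groups overlap, with litter 1 high in both. The log2 fold change was 0.51 ± 0.060 (SE; edgeR adjusted p = 0.00011), and the call held without any single library. Cox7a2, the common form of subunit 7a, went from 106, 90.6, 74.9 and 74.0 normalized CPM to 126, 113, 103 and 98.8, a log2 fold change of 0.36 ± 0.056 (edgeR adjusted p = 0.00072), also with each library left out. Both genes were higher with IFN-γ within the 2 litters that share a title prefix and within the 2 others.

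Against these stood Cox7a2l, a relative of Cox7a2 known as a factor that joins complexes III and IV into supercomplexes. Its values were 192, 190, 175 and 194 normalized CPM in Ctr-OPCs and 160, 156, 163 and 179 with IFN-γ, lower in 4 of 4 litters (log2 fold change -0.19 ± 0.055; edgeR adjusted p = 0.023). The adjusted p was 0.070 without Ctr replicate 1, 0.091 without Ctr replicate 2 and 0.093 without IFNg replicate 2. Cox7b rose by 0.17 ± 0.055 (adjusted p = 0.041), a call that 9 of the 11 fits with 1 library left out did not make: without Ctr replicates 1 to 4 (0.080, 0.18, 0.13 and 0.085), Dexa replicates 1 and 4 (0.077 and 0.053) and IFNg replicates 2 to 4 (0.071, 0.16 and 0.10). Cox6b2, the testis form of subunit 6b, rose by 0.56 ± 0.18 (adjusted p = 0.039) from 1.24 to 3.12 normalized CPM in Ctr-OPCs to 2.45 to 3.505 with IFN-γ, and 7 of the 11 fits did not call it: without Ctr replicates 2 to 4 (0.067, 0.14 and 0.13), Dexa replicate 1 (0.055) and IFNg replicates 2 to 4 (0.11, 0.15 and 0.075). The other named subunits did not pass the test: Cox4i1 stood at -0.059 (95% interval -0.20 to 0.086), Cox6a1 at -0.13 and Cox8a at -0.16.

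**Figure D4:**
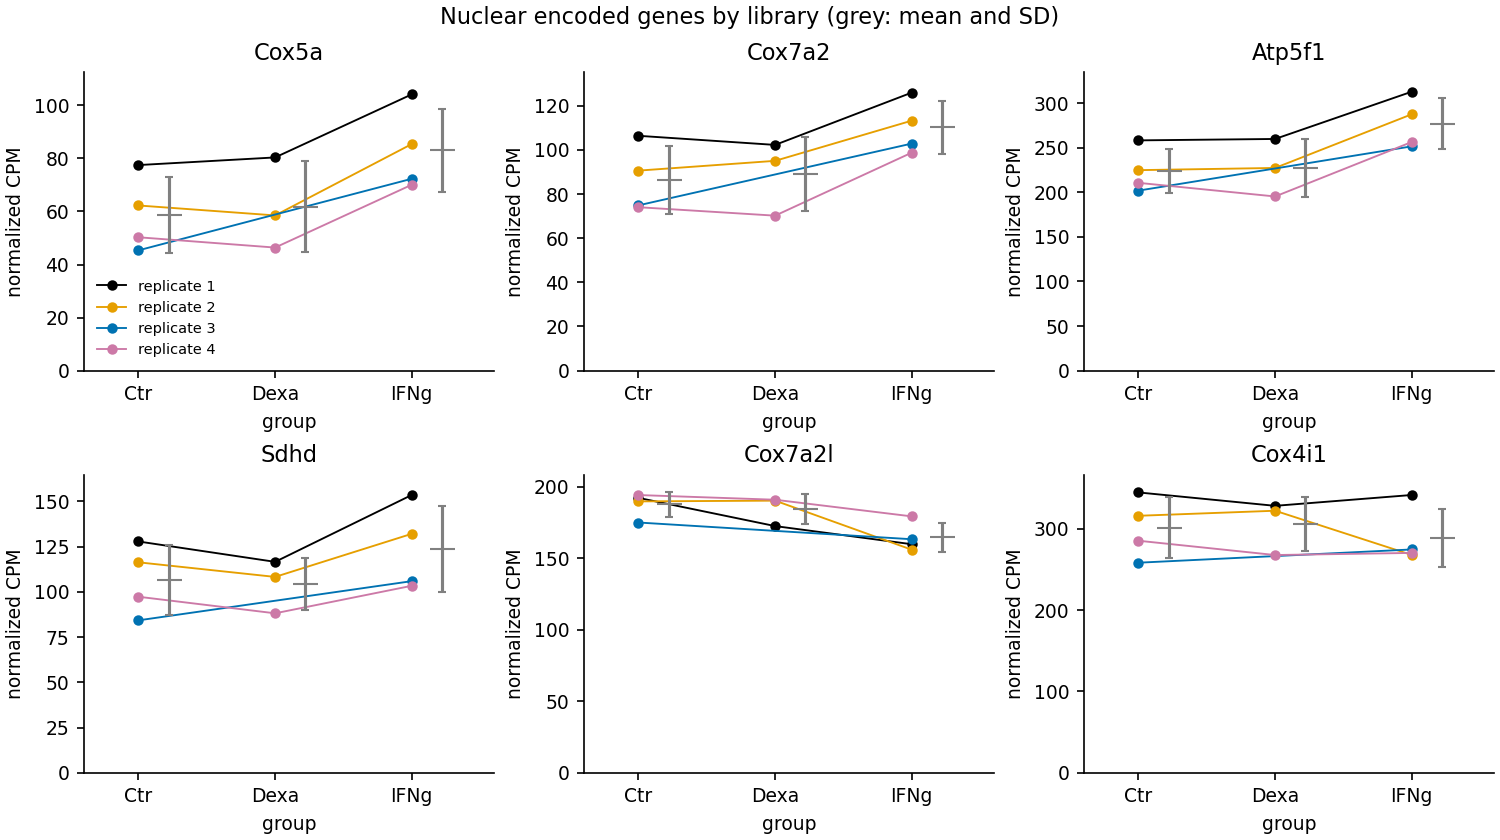
Normalized CPM in each full library for Cox5a, Cox7a2, Atp5f1, Sdhd, Cox7a2l and Cox4i1; lines join libraries of the same litter (replicate 3 has no full Dexa library), and grey bars show the mean ± SD of a group. In every litter Cox5a, Cox7a2, Atp5f1 and Sdhd are higher and Cox7a2l lower with IFN-γ than in Ctr.

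In ATP synthase a stalk subunit and a ring subunit were called higher, and 15 of its 17 tested nuclear genes stood above 0 (median 0.089). Over all genes 8630 of 17919 did. The size depended on the scale: the summed nuclear genes stood at 0.094 on TMM-adjusted sizes, 0.050 without TMM scaling and 0.022 over protein-coding TPM. Each was above 0 in 4 of 4 litters. Atp5f1, subunit b of the peripheral stalk, had 258, 225, 202 and 211 normalized CPM in Ctr-OPCs and 313, 288, 252 and 257 with IFN-γ, higher by 1.21 to 1.28 times in each litter (log2 fold change 0.31 ± 0.047; edgeR adjusted p = 0.00065). Atp5g3, for subunit c, went from 219, 174, 104 and 125 to 272, 196, 136 and 136 normalized CPM (0.25 ± 0.053; adjusted p = 0.0055). Both calls held without any single library. The catalytic subunits were not called: Atp5a1 was at 0.037 (95% interval -0.076 to 0.15) and Atp5b at 0.082 (-0.034 to 0.20). Of the other genes for subunit c, Atp5g1 was at 0.089 and Atp5g2 at -0.014.

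Complex II, the only complex without mitochondrial genes, had all 4 members above 0. Sdhd went from 128, 116, 84.3 and 97.3 normalized CPM to 154, 132, 106 and 103, higher in 4 of 4 litters (0.22 ± 0.052; edgeR adjusted p = 0.0095, and 0.061 without IFNg replicate 3). Sdhb was at 0.19 ± 0.071 (adjusted p = 0.062), Sdhc at 0.11 and Sdha at 0.034. In complex III, Uqcrb, a small subunit that lines the ubiquinone site, rose by 0.16 ± 0.053 (adjusted p = 0.048), but 10 of the 11 fits with 1 library left out did not call it: without Ctr replicates 1 to 4 (0.076, 0.21, 0.11 and 0.12), Dexa replicates 1 and 4 (0.073 and 0.091) and IFNg replicates 1 to 4 (0.072, 0.098, 0.15 and 0.094). The core protein Uqcrc1 (0.041) and the Rieske iron-sulfur protein Uqcrfs1 (0.018) were not called.

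Complex I, the largest, had 6.98% of its tested members called, below the share in each other complex. With edgeR none of its 7 nuclear core subunits was called or reached an unadjusted p below 0.05, and Ndufs1 and Ndufv1, which carry the electron path, stood at 0.0090 and -0.071. Called were 3 of the 29 other nuclear subunits. Ndufs4, needed to complete the NADH-oxidizing arm, rose by 0.22 ± 0.051 (edgeR adjusted p = 0.0086, and 0.066 without Ctr replicate 2). Ndufc2 rose by 0.26 ± 0.066 (adjusted p = 0.014), with 0.069 without Ctr replicate 1, 0.062 without Ctr replicate 3 and 0.078 without IFNg replicate 3. Ndufb2 fell by 0.21 on the log2 scale ± 0.056 (adjusted p = 0.019), with 0.058 without Ctr replicate 2, 0.062 without Ctr replicate 4 and 0.054 without IFNg replicate 4. Among the assembly factors, Ndufaf5 rose from 13.1, 12.2, 10.96 and 11.7 normalized CPM to 16.3, 15.2, 12.5 and 14.7 (0.29 ± 0.070; adjusted p = 0.0099, and 0.057 without Ctr replicate 4).

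The mitochondrially encoded genes stood below 0 in 12 of 13 cases with IFN-γ, with a median of -0.11 and a range of -0.22 to 0.041, and 2 were called. They are cut from long shared transcripts, so that they are not 13 independent measurements. Cytochrome b, mt-Cytb, went from 1466, 1267, 1939 and 2114 normalized CPM to 1334, 1214, 1454 and 1816, lower in 4 of 4 litters, most in litter 3 (0.75 times). Its log2 fold change was -0.21 ± 0.071 (edgeR adjusted p = 0.046), and 8 of the 11 fits with 1 library left out did not call it: without Ctr replicates 1, 3 and 4 (0.063, 0.16 and 0.12), Dexa replicates 2 and 4 (0.054 and 0.052) and IFNg replicates 2 to 4 (0.073, 0.12 and 0.070). For mt-Atp6 the change was -0.22 ± 0.069 (edgeR adjusted p = 0.031). It was not called without Ctr replicates 1 to 3 (0.057, 0.070 and 0.11) or IFNg replicates 3 and 4 (0.085 and 0.051). With the reads of the identical copy Gm10925 added, the value of mt-Atp6 was -0.15 and was no longer called (adjusted p = 0.13), whereas mt-Cytb kept its call (-0.22, adjusted p = 0.034).

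The remaining mitochondrial genes were not called. In complex IV, mt-Co1 was at -0.086 ± 0.066, mt-Co2 at -0.11 and mt-Co3 at -0.14. Of the complex I genes, mt-Nd4l was at -0.19, mt-Nd4 at -0.16, mt-Nd2 at -0.094, mt-Nd5 at -0.064, mt-Nd6 at -0.054, mt-Nd1 at -0.047 and mt-Nd3 at 0.041. The small ATP synthase gene mt-Atp8 was at -0.12 ± 0.092. The fall was uneven over litters: mt-Co1 was at 9661 in Ctr and 8339 with IFN-γ in litter 3, against 6365 and 6639 normalized CPM in litter 2.

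Few genes were called with dexamethasone, and no member was among them by edgeR. Called were 282 of 17919 genes (1.57%), 1.31% higher and 0.262% lower, and 0 of the 101 members by edgeR, 1 by DESeq2 with the block, with 3 by edgeR at an unadjusted p below 0.05. The 282 genes fell to 129 without Ctr replicate 1, 114 without Ctr replicate 2, 125 without Ctr replicate 4, 101 without Dexa replicate 1 and 78 without Dexa replicate 2. The members' median log2 fold change was -0.026 against -0.0016 over all genes. The 95% interval lay within 0.5 either way for 98 of 101 members (97.0%), which bounds the size of most changes without showing that there was none. The nearest to a call was Ndufc2, a subunit of the membrane arm of complex I, with 83.4, 67.3 and 49.7 normalized CPM in Ctr-OPC replicates 1, 2 and 4 and 113, 78.9 and 55.7 with dexamethasone. It was higher in 3 of 3 litters, at 0.31 ± 0.074 (adjusted p = 0.090), and DESeq2 with the block called it alone among the members (adjusted p = 0.029). Next came mt-Nd3 at 0.22 ± 0.088 and the assembly factor Ndufaf2 at -0.20 ± 0.089.

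All 4 complex II genes were below 0 with dexamethasone, Sdhb at -0.13, Sdhd at -0.11, Sdhc at -0.070 and Sdha at -0.041, none of them called. As summed reads, complex II changed by -0.091 ± 0.025 (log2 ratio, SD, n = 3) and nuclear ATP synthase by -0.073 ± 0.030, each lower in 3 of 3 litters. This was not particular to them: all nuclear genes together changed by -0.056 ± 0.037, also lower in 3 of 3. So did nuclear complex III (-0.055), nuclear complex IV (-0.051) and the assembly factors (-0.070). Nuclear complex I was at -0.021, above 0 in 1 of 3 litters, and the mitochondrial genes changed by -0.024 ± 0.066. Summed as TPM over the TPM of protein-coding genes, nuclear ATP synthase turned to 0.010, above 0 in 2 of 3 litters, and complex II was at -0.061, lower in 3 of 3. Cox5a (-0.021), Cox7a2 (-0.0034) and Atp5f1 (-0.026) were not called with dexamethasone.

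Set directly against each other, the treatments differed in 16 of 101 members (15.8%), 14 higher and 2 lower with IFN-γ, where 33.7% of all genes were called, 17.2% higher and 16.6% lower. Without Dexa replicate 1 there were 7 calls, and without Dexa replicate 4 there were 9. Without the litter as a block edgeR called 0 members, with 5 at an unadjusted p below 0.05, and DESeq2 called 1, Ndufb2 (adjusted p = 0.023). This comparison shares its IFN-γ libraries with the first and its Dexa libraries with the second. Cox5a differed by 0.53 ± 0.068 (edgeR adjusted p = 0.00021), Cox7a2 by 0.36 ± 0.063 (0.0015), Atp5f1 by 0.33 ± 0.053 (0.00083), Sdhd by 0.32 ± 0.058 (0.0019) and Atp5g3 by 0.29 ± 0.060 (0.0044), and these 5 calls held without any single library. In complex II, 3 of 4 members were higher: Sdhb by 0.32 ± 0.080 (0.011, and 0.085 without Dexa replicate 1) and Sdhc by 0.18 ± 0.058 (0.037) joined Sdhd. Sdhc was called in only 1 of the 11 fits with 1 library left out, with 0.19 without Dexa replicate 1, 0.13 without Dexa replicate 4, and 0.051 to 0.081 without Dexa replicate 2, any Ctr library or IFNg replicate 1, 3 or 4. Ndufaf5 (0.32 ± 0.080) and Ndufaf6 (0.43 ± 0.13), both assembly factors of complex I, were higher too. Ndufaf5 was not called without Dexa replicate 1 (0.056) or 2 (0.072), and Ndufaf6 without Dexa replicate 1 (0.14) or 4 (0.11) or IFNg replicate 1 (0.085) or 3 (0.051). The other 5 higher members were Uqcrb (0.24), Atp5o (0.23), Atp5c1 (0.21), Cox7b (0.20) and Ndufs4 (0.18), and each lost its call both without Dexa replicate 1 (0.088, 0.077, 0.070, 0.12 and 0.15) and without Dexa replicate 4 (0.074, 0.10, 0.11, 0.21 and 0.14). Atp5c1 was also not called without IFNg replicate 2 (0.061), and Cox7b and Ndufs4 were each called in only 2 of the 11 fits. Lower were Ndufb2 at -0.25 ± 0.063 (0.013, and 0.073 without Dexa replicate 2) and mt-Nd4l at -0.32 ± 0.083 (0.014, and 0.061 without Dexa replicate 1 and 0.063 without Dexa replicate 2). With the copy Gm10222 added, mt-Nd4l stood at -0.12 and was not called (0.36).

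Outside the rule, other genes of respiration were counted by list. Of 19 tested electron carriers and related enzymes outside the rule, 7 rose and 3 fell with IFN-γ, where 16.0% of all genes were called higher and 15.3% lower, with a median of 0.085 against -0.012 over all genes. Coq8a, an atypical kinase of ubiquinone synthesis, fell by 1.18 on the log2 scale (edgeR adjusted p = 3.3e-05), from a mean of 8.11 to 3.69 normalized CPM. In the same pathway Pdss1 rose by 0.53 ± 0.085 and Coq2 by 0.49 ± 0.065. Cytochrome c itself, Cycs, rose by 0.30 ± 0.067 (adjusted p = 0.0064), while Cyc1, the cytochrome c1 of complex III, was at -0.064. Among 42 assembly factors outside the rule, 4 rose and 3 fell, a smaller share than the 31.3% called over all genes. Sdhaf2, which attaches FAD to Sdha, rose by 0.60 ± 0.061 (adjusted p = 4.1e-05) from 25.9 ± 0.97 to 39.2 ± 2.09 normalized CPM, whereas Sdhaf1, for the iron-sulfur centres of Sdhb, fell by 0.40 on the log2 scale (adjusted p = 0.0058) and Higd2a by 0.37.

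The machinery of mitochondrial DNA and RNA had 2 of 27 tested genes higher and 4 lower with IFN-γ, with a median of -0.076, and this share too was below the 31.3% called over all genes. Pnpt1, a mitochondrial RNA exonuclease known to respond to interferons, rose by 0.64 ± 0.083 (edgeR adjusted p = 0.00022), and Slirp, which stabilizes mitochondrial mRNA, by 0.33. Polg, the mitochondrial DNA polymerase, fell by 0.51 on the log2 scale ± 0.051 (adjusted p = 3.6e-05). Tfam, the main packaging and transcription factor of mitochondrial DNA, was at -0.0092. Of 17 nuclear regulators, Ppargc1a (0.39 ± 0.13, adjusted p = 0.047) and Gabpb1 (0.19, adjusted p = 0.040), a subunit of the ETS factor GABP, rose with IFN-γ and 0 fell. Over all genes 16.0% were called higher and 15.3% lower, so that these regulators were called no more often than other genes. With dexamethasone 1 of the 17 was called, where 1.57% of all genes were. It was Hif3a, from a mean of 0.186 to 19.4 normalized CPM (log2 fold change 6.40 ± 0.31; adjusted p = 3.9e-06).

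In the 78 genes of the mitochondrial ribosome, which translates the 13 mitochondrial messages, 11 rose and 2 fell with IFN-γ (median 0.0089), against 16.0% higher and 15.3% lower over all genes, with Mrps6 at 0.96 and Mrps7 at -0.66. Of 83 cytosolic ribosomal genes, 5 rose and 1 fell. The TCA cycle had 3 of 24 higher and 2 lower, the largest being Pdk2 at -0.65 and Pdk3 at 0.47, kinases that switch off pyruvate dehydrogenase, followed by Mdh1 at 0.39. Glycolysis had 8 of 22 higher and 0 lower, against the same 16.0% and 15.3% of all genes, with a median of 0.20. The 22 are gene entries for a list of 21 symbols, so that a symbol with more than 1 entry was counted more than once. Pfkp, a phosphofructokinase, rose by 1.35 ± 0.14 (edgeR adjusted p = 4.5e-05), Aldoc by 0.88 ± 0.15 (0.0015) and Aldoa by 0.42 ± 0.071 (0.0013). Aldoc also stands among the astrocyte markers and was the only glycolytic gene called with dexamethasone (0.98 ± 0.17; adjusted p = 0.016). With dexamethasone Hif3a and Aldoc were the called genes of the lists in these paragraphs.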

How the data were processed

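Total RNA, depleted of ribosomal RNA, was sequenced from 12 OPC cultures in 3 groups of 4. The authors quantified transcripts with Salmon 0.8.2 and deposited, per transcript, estimated counts (expected counts, not whole) and TPM. The submitters' processing notes also name STAR, DESeq2, mm10 and GRCm38. Transcript IDs matched Ensembl release 96. The 3 deposited tables of fold changes and p-values between groups were not used. The members and gene lists were chosen with earlier results of these data known.

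Estimated counts were summed per gene and rounded. The table of Dexa replicate 3 held 47855 of 141862 transcripts, and 11 libraries with 19209063 to 52074652 reads in genes were fitted. The 17919 genes that reached 10 counts in 4 or more libraries entered edgeR 4.0.16 (R 4.3.3; quasi-likelihood F test, TMM scaling, Benjamini-Hochberg adjustment) with group and replicate number as terms. Replicate numbers come from the labels, and each was taken as a litter shared by the groups, which is an assumption. Deviations from group means correlated at 0.41 to 0.75 between libraries of the same number (10 pairs) and at -0.65 to 0.53 between others (30 pairs). Such deviations sum to 0 within a group, which pulls the values between different numbers down, so this difference overstates the pairing. The highest value between different numbers was that of Ctr replicate 3 with Dexa replicate 4. No library pair of a group was a duplicate (chi-square per degree of freedom at least 23.6). On simulated data for IFNg vs Ctr (17919 genes, 200 changed, 5 draws), a median of 13.4% of changes of 1.25-fold, 58.2% of 1.5-fold and 71.2% of 2-fold were recovered, and 10.2% of calls were false. In the data 31.3% of genes were called for this comparison. Such rates depend on the share of changed genes, so they cannot be carried over to it.

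Named were all mitochondrial genes and Sdha to Sdhd, fixed core and alternative subunits, and up to 8 called members per direction and comparison. For each other list up to 3 called genes were named. A few genes that the rule names are not reported here. Uqcrb, Cox7b, Atp5o, Atp5c1, Atp5k, Ndufaf2, Cycs, Cyc1 and Tfam were named after their values were seen. Alternatives were DESeq2 1.42.0, no block, other filters and scalings, and leaving out each library. Adding the reads of copies, TPM over protein-coding TPM, TMM-adjusted sums and the fit of 11 libraries over genes listed whole were chosen after seeing the data. Sums per complex were compared within litters, with no test.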

Additional observations from a re-analysis of the deposited data

Results flagged for a closer look

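In 114 groups of 4 libraries examined for a value far from the other 3, 2 were found, where chance gives about 1 in 20. Cox4i1 stood at 341.3 normalized CPM in IFNg replicate 1, against 268 to 274 in the other IFN-γ-treated libraries. Replicate 1 was also the highest for Cox4i1 in Ctr (344) and Dexa (328). As CPM without TMM scaling, mt-Atp6 and mt-Atp8 together stood at 865.9 in IFNg replicate 4, against 615 to 641 in the others. Replicate 4 was also the highest for this sum in Ctr (972) and Dexa (987).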

How the results depend on the processing

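Without the replicate block edgeR called 0 members and 1513 genes for IFNg vs Ctr, 22 genes for Dexa vs Ctr, and 0 members and 1571 genes for IFNg vs Dexa, and DESeq2 called 0 and 2302, 98 genes, and 1 and 2345. DESeq2 with the replicate block called 1 member and 460 genes for Dexa vs Ctr, and edgeR with no filter 642 genes. Over the 29 members tested among genes that the incomplete table lists whole, 11 libraries gave 1 call for IFNg vs Ctr and 2 for IFNg vs Dexa, and all 12 gave 2 and 6, with fewer genes tested. Leaving out 1 library gave 9 to 16 members for IFNg vs Ctr, 7 to 19 for IFNg vs Dexa, and 78 to 393 genes for Dexa vs Ctr. As sums of TPM, the mean log2 ratio IFNg over Ctr was 0.056 for mitochondrial genes, 0.23 for nuclear genes, 0.19 for nuclear complex I, 0.31 for II, 0.15 for III, 0.21 for IV and 0.29 for ATP synthase, and Dexa over Ctr was -0.0092 for nuclear genes and -0.0080 for ATP synthase. Over protein-coding TPM the IFNg values were -0.042 (nuclear), -0.080 (I), -0.12 (III) and 0.022 (ATP synthase), and the Dexa values 0.0092 (nuclear), -0.061 (II), -0.0049 (IV) and 0.010 (ATP synthase). On TMM-adjusted sizes IFNg was 0.056 for nuclear genes and 0.094 for nuclear ATP synthase. Among the named genes, 120 values lost and 18 gained their call over all alternatives, and none of the called values changed sign. The cause of these differences was not tested. Depth limits the members below the filter, for which no comparison was made.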
